A study of Arabidopsis thaliana with 6 samples.

Results

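Nuclear gene transcripts were compared between cells sorted as having completed DNA replication and cells sorted as in the course of it. The comparison sets the 2 libraries of the G2M gate (4n DNA content) against the 2 libraries of the S gate (between 2n and 4n) in Arabidopsis thaliana root tips. The genes described are all nuclear genes that passed a default filter on low counts, 25089 of the 32548 nuclear genes and 32833 genes counted in all. Both gates came from the same kind of material: protoplasts, cells freed from their walls, of root tips of seedlings 7 days old with the genotype Col0/H2B-RFP/CDT1a-GFP. Every sorted cell therefore carries a red reporter of histone H2B and a green reporter of CDT1a, and no library of plants without reporters was analysed here. The remaining gate, G1 (2n), has 2 libraries that entered the fit and served to check the labels. The labels do not say whether the 2 libraries of a gate came from separate plants, so p-values measure the spread between these libraries, which may be technical.

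In the eukaryotic cell cycle, origins of replication are licensed in G1 by the origin recognition complex, CDC6, CDT1 and the MCM helicase, and they fire in S phase, when core histones are made to package the new DNA. In plants the genes for replication are driven by E2F factors that RBR1, the retinoblastoma homologue, holds in check, and the genes for mitosis and cytokinesis by R1R2R3-type MYB factors acting through the MSA element. Many root cells do not divide at the 4n stage but go on to further rounds of replication, called endoreduplication, as they leave the meristem and differentiate. A gate on DNA content takes such cells together with dividing ones.

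Total counts came to 15947211 and 31629519 in the G2M libraries and 208406910 and 13114711 in the S libraries, so that a floor of 3 counts was worth 0.1999 and 0.101 CPM (counts scaled to a TMM-adjusted library total of 1000000) in G2M, and 0.0136 and 0.235 CPM in S. The S pair stood apart from its own gate: Pearson's r of log2 CPM across genes, which are not independent replicates, was 0.966 within G2M and 0.932 within S, while r between S replicate 2 and either library of G2M was 0.940 or 0.946. The numbers of genes called, the list counts and medians, and the named genes were therefore also computed without each library in turn. Promoter motifs and the shares by level, structure, position and class were not. Of the 141 named genes called between the gates 63 kept their call in every one of the 18 settings tried. Mitotic genes were far above G1 in both gates. CYCB1;1, a B-type cyclin that accumulates before mitosis, had 85.8 and 77.7 CPM in G2M, against 62.4 and 67.0 CPM in S. The G1 libraries had 4.87 and 4.23 CPM of it. The S gate did not have the highest level of the genes that define S phase, as the sections on replication and histones show, so the names S and G2M stand here for the gates and not for a checked phase.

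Between the gates 2399 nuclear genes were higher in G2M and 2554 were lower in G2M at an adjusted p of 0.05 (edgeR's quasi-likelihood test with Benjamini-Hochberg adjustment over 25364 genes). These are 9.56% and 10.2% of the genes tested, 19.7% in either direction, and they are the background for every count below. Over all genes the median log2 fold change was −0.09. The higher genes changed little each, with a median log2 fold change of 0.62, and 279 of them passed 2-fold. The lower genes changed more, with a median of −1.22, and 1606 of them passed 2-fold. Among genes with at least 10 CPM in the higher gate, those past 2-fold numbered 139 higher and 707 lower. The higher genes took 43.8% and 44.4% of nuclear reads in the G2M libraries, against 31.2% and 33.0% in the S libraries, and the lower genes 8.61% and 8.78% in G2M, against 20.16% and 18.7% in S. The libraries of the gates did not overlap for 99.8% of the higher and 99.5% of the lower genes, against 60.4% of all genes tested. The calls were made on these same libraries, so this separation is no separate support for them. In these bulk samples fewer cells of a type and less RNA per cell cannot be told apart, in any result below. Each gate has 2 libraries, so for a single gene the smallest p of an exact permutation test is 0.333, and every call draws on the spread that genes share in the fit.

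**Figure D1:**
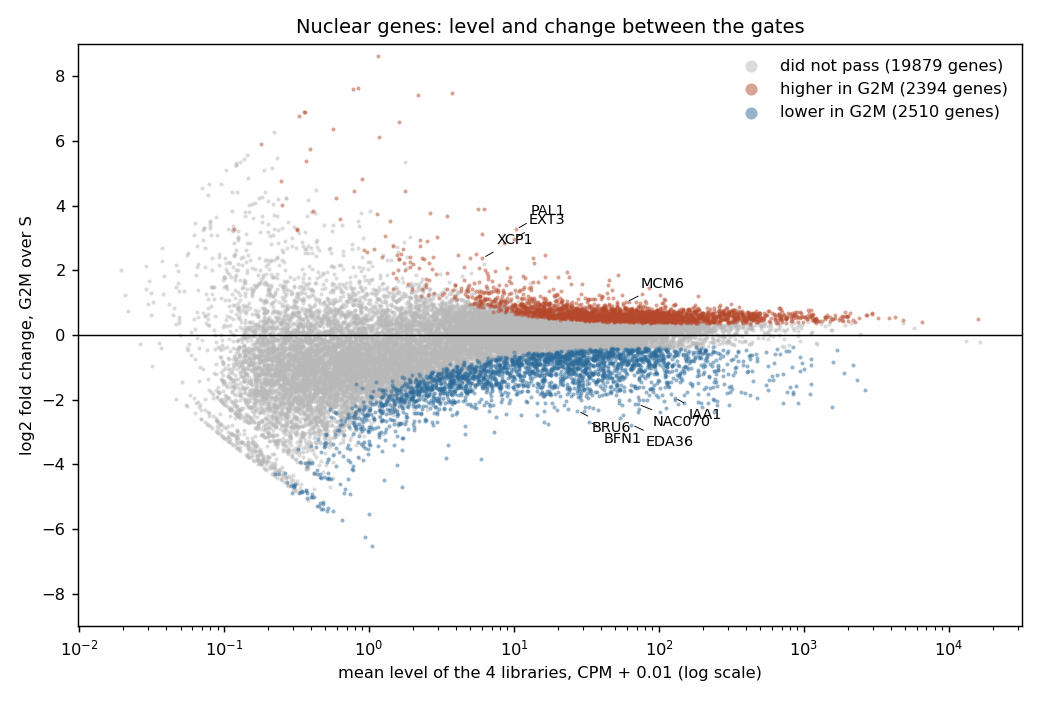
Log2 fold change (G2M over S, y axis) of each nuclear gene tested against its mean level in the 4 libraries (CPM + 0.01, log x axis), with genes higher in G2M in red, lower in blue and others in grey, and 306 genes at 0 counts in a gate not drawn. The 2394 higher genes drawn hug the zero line at high levels, whereas the 2510 lower genes spread farther from it.

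How many genes passed depended on which library was left out. Without S replicate 2, 4924 genes were higher and 4351 lower. Without S replicate 1 the counts were 1473 higher and 1928 lower. Without G2M replicate 1 they were 482 and 990, and without G2M replicate 2 they were 577 and 1216. The remaining library of a gate is then assumed to vary like those of the other gates. Of the genes reported as higher, 1262 (52.6%) passed with both S libraries and with either one left out, and of the lower genes 1545 (60.5%) did. No gene called in the comparison was called in the opposite direction in any of the 18 other settings.

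**Figure D2:**
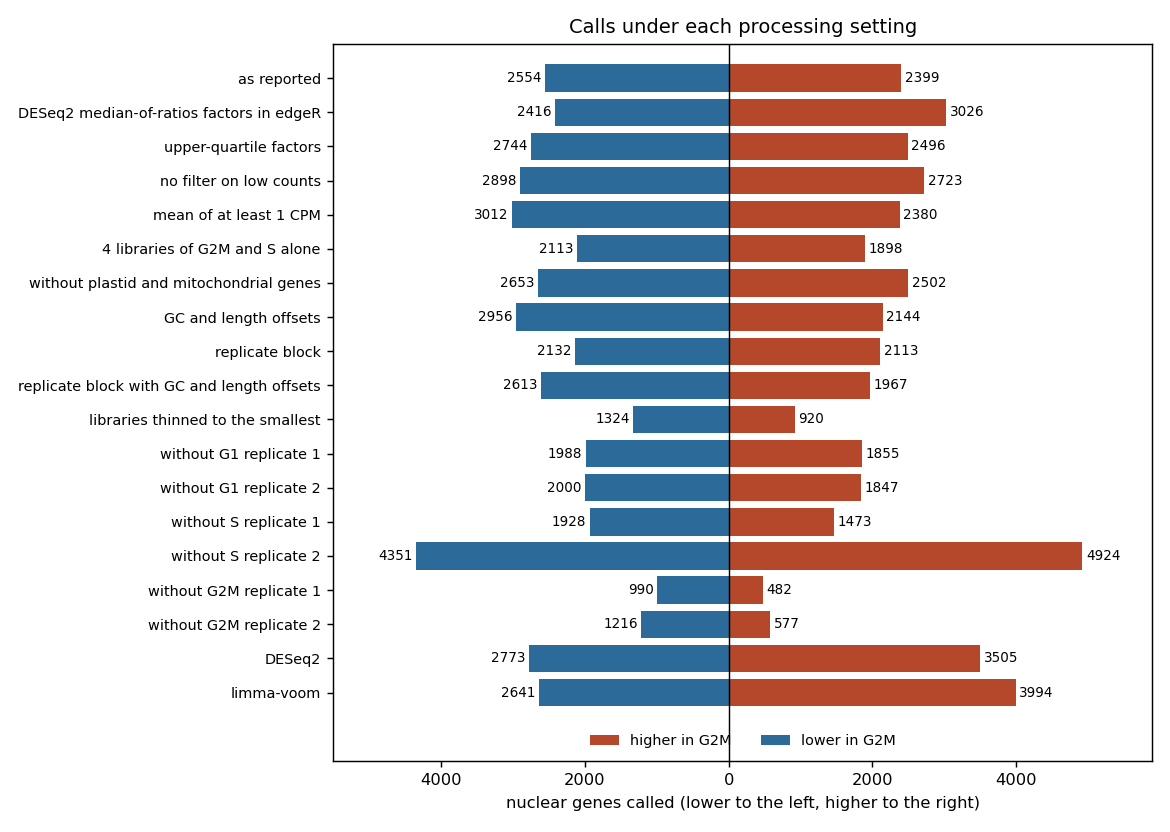
Number of nuclear genes called lower in G2M (blue, to the left) and higher in G2M (red, to the right) in the comparison as reported and in each of 18 other settings. The counts range from 482 to 4924 higher and from 990 to 4351 lower, and both ends come from leaving out 1 library.

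Genes with many reads were called more often, in CPM not divided by length. Genes were split into 5 equal groups by mean level. In the top one 29.5% of genes were higher and 14.6% lower, against 0.379% higher and 2.39% lower in the bottom one. Shares differed with intron number. Of protein-coding genes with no intron 4.64% were higher and 12.8% lower, whereas of those with 6 or more introns 12.5% were higher and 9.05% lower. Libraries of the same gate also differed by structure. Spearman's correlation of the log2 difference with exon length was 0.164 for G2M minus S. It was 0.207 for G2M replicate 1 minus 2 and −0.166 for S replicate 1 minus 2. Whether the intron shares reflect the gates or such library differences was not tested. Position made little difference: the share higher ran from 9.11% to 10.5% over the 5 chromosomes, and within 3 Mb of a centromere 9.46% of genes were higher and 7.95% lower, against 9.57% and 10.4% elsewhere. Of 890 long noncoding RNAs none was higher, against 9.56% of all genes, and 27 were lower, 3.03%, against 10.2%. Their median log2 fold change was −1.14, near the −1.15 of the bottom group by level, and the part of level in these shares was not tested.

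Short promoter motifs known in plants were counted on both strands in the 250 bases before to 50 bases after each gene's start, in 25088 promoters of the RefSeq TAIR10.1 annotation. The letters TGGGCC, the site II element of growth and ribosomal genes, were in 31.4% of promoters of genes higher in G2M, in 8.54% of those lower and in 16.4% of all. The telo-box, AAACCCTA, was in 13.96% of promoters of higher genes, 3.37% of lower genes and 6.11% of all. Both differences remained with ribosomal protein genes left out, at 28.3% and 11.3% of higher genes, and in the top of those 5 groups, where TGGGCC was in 38.3% of higher, 9.28% of lower and 26.3% of all. The E2F site TTTCCCGC was rarer, in 1.75% of higher, 0.27% of lower and 0.79% of all promoters, and its second form TTTGGCGC was in 0.83%, 0.20% and 0.43%. Letters of the W-box, bound by WRKY factors, ran the other way, with TTGACT in 18.5% of higher, 26.3% of lower and 21.8% of all, and TTGACC in 12.3%, 17.42% and 14.3%. The G-box CACGTG was in 6.25% of higher, 9.91% of lower and 8.0% of all.

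The core of the MSA element, AACGG, was nearly level at 28.2% of higher, 24.4% of lower and 25.2% of all promoters. In 164 promoters a match of AACGG overlapped one of TTGACC, and in 121 one of TGGGCC. The auxin response element TGTCTC (13.3% of higher, 14.3% of lower, 14% of all) and the AT-rich comparison AGATATTT (5.96%, 6.23% and 5.66%) were level too. A match is a description of letters and not a site, and genes of a list share promoters by descent, so no test was made.

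**Figure D3:**
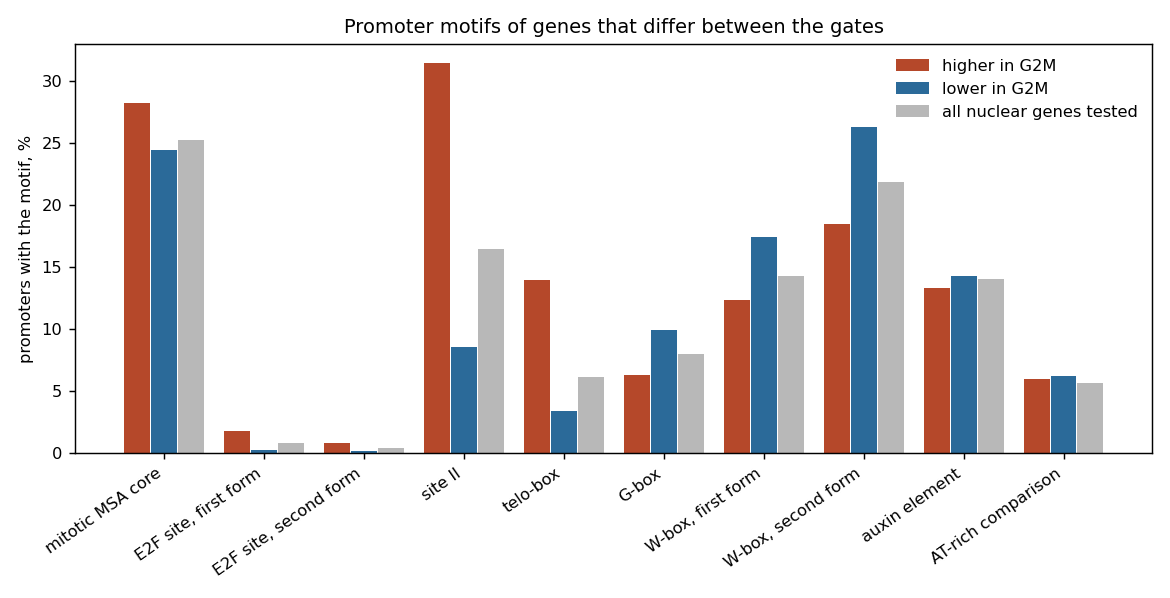
Percent of promoters (y axis, 250 bases before to 50 after the start) that hold each of 10 motifs, for genes higher in G2M (red), lower in G2M (blue) and all nuclear genes tested (grey). Site II (31.4% against 8.54%) and the telo-box (13.96% against 3.37%) are in a larger share of the higher genes, and the second form of the W-box (18.5% against 26.3%) in a larger share of the lower genes.

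The 250 bases before the start are shown for 5 genes that are described below, read 5′ to 3′ towards the start. Capitals mark the matches of the motifs named beside each gene, and matches of the other motifs counted above stay in lower case. FAS1, a subunit of the chromatin assembly factor that loads histones behind the fork, and MCM6, a subunit of the replicative helicase, hold E2F letters and were higher in G2M. HTA7, a gene of the histone H2A variant H2A.W, holds AACGG in both orientations and was lower. AT4G27090, annotated as a protein of the L14 family of the large ribosomal subunit, holds the telo-box beside a pair of site II letters and was higher. EDA36 had the largest fall among called genes with a symbol, at least 10 CPM in a gate and no overlap between the gates' libraries. It holds TTGACT in both orientations. All 5 lie on the minus strand of TAIR10.1.
FAS1, chr1:24324092-24324341, TTTCCCGC and TTTGGCGC as their reverse complements, 67 and 128 bases before the start: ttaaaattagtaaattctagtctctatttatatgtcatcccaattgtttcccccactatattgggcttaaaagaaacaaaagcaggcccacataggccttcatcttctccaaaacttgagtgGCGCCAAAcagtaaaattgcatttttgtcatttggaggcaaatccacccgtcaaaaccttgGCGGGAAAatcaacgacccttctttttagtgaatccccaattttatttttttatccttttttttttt
MCM6, chr5:18010668-18010917, TTTCCCGC as its reverse complement, 46 bases before the start: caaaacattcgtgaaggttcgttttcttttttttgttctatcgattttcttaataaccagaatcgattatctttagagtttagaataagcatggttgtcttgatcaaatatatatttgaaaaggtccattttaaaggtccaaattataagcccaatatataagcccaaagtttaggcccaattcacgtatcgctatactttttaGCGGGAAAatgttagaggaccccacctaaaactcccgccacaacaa
HTA7, chr5:9793561-9793810, AACGG and its reverse complement, the nearer 10 and the farther 93 bases before the start: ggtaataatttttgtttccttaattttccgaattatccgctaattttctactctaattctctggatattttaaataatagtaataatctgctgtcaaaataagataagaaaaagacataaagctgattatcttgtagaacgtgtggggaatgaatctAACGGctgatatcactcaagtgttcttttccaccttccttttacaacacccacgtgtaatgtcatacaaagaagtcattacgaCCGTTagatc
AT4G27090, chr4:13595253-13595502, TGGGCC in both orientations and AAACCCTA, between 49 and 94 bases before the start: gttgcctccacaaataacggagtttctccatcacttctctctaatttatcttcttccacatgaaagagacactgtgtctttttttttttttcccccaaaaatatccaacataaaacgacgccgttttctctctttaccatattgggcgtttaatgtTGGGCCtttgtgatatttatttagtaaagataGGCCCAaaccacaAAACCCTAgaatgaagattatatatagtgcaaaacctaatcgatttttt
EDA36, chr4:8033732-8033981, TTGACT and its reverse complement, 68 and 130 bases before the start: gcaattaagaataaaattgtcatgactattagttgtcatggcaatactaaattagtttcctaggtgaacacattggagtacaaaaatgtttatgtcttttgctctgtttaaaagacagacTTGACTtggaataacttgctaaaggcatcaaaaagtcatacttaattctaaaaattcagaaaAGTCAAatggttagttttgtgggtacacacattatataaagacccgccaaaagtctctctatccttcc

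Genes of DNA replication were higher in the gate that had completed it. Of 29 listed genes of origins, helicase, polymerases and clamp, 18 were higher in G2M, none was lower, and 11 did not pass, with a median log2 fold change of 0.64 against −0.09 for all genes. Their summed level was 1916 and 1877 CPM in G2M, against 1152 and 1383 CPM in S. The G1 libraries had 1392 and 1397 CPM, above both S libraries. MCM6 (AT5G44635, chr5:18006212-18010667), whose promoter with its E2F letters is printed above, had 75.4 and 82.9 CPM in G2M, against 37.6 and 41.2 CPM in S. Both G2M libraries lay well above both S libraries, with a log2 fold change of 1.01 ± 0.13 (SE, edgeR adjusted p = 0.000293). CDT1B (AT3G54710, chr3:20251812-20254323), which loads the helicase at origins, had 56.0 and 52.0 CPM in G2M, against 22.6 and 28.2 CPM in S, a log2 fold change of 1.10 ± 0.16 (edgeR adjusted p = 0.000512). The calls of MCM6 and CDT1B held in all 18 settings.

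Several other genes of licensing and of the fork were higher too. CDT1A had 142 and 154 CPM in G2M, against 54.1 and 83.0 CPM in S, with a log2 fold change of 1.13. Reads of the CDT1a-GFP reporter may be counted in that gene. The helicase genes MCM2, MCM3, MCM4 and MCM5, the origin genes ORC1B, ORC2, ORC3 and ORC6, and CDC45, MCM10, SLD5, ETG1, RFC1 and the polymerase alpha gene ICU2 were also higher, with log2 fold changes from 0.50 (RFC1) to 1.15 (CDC45). PCNA1, one of the sliding clamp genes, had 107 and 113 CPM in G2M, against 65 and 85.8 CPM in S, a log2 fold change of 0.55 (edgeR adjusted p = 0.018). POLD1, FEN1, LIG1, PCNA2, CDC6 and ORC1A were among the 11 that did not pass. The count of higher genes was 11 without G2M replicate 1 and 9 without G2M replicate 2, and it was 24 without S replicate 2.

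Listed core histone genes went the other way. The list holds genes of H2B, H3.1, H4 and H2A, the last with genes of the variants H2A.W, HTA7 among them, and H2A.X. Of its 29 genes 22 were lower in G2M, none was higher and 7 did not pass, with a median log2 fold change of −0.63. Their summed level was 1518 and 1828 CPM in G2M, against 2455 and 2621 CPM in S. It was 2839 and 2901 CPM in G1, so the S gate did not have the highest level. The H4 gene AT3G53730 (chr3:19912385-19913515) had 30.2 and 36.8 CPM in G2M, against 67.9 and 64.5 CPM in S. Its log2 fold change was −0.98 ± 0.14 (edgeR adjusted p = 0.000629), and the libraries of the gates did not overlap. HTA7 (AT5G27670, chr5:9792509-9793560) had 72.5 and 81.1 CPM in G2M, against 131 and 142 CPM in S, a log2 fold change of −0.83 ± 0.12 (edgeR adjusted p = 0.000742). AACGG, whose matches in the HTA7 promoter are printed above, was in 69.0% of the promoters of the list, against 25.2% of all promoters. The count of lower histone genes was 3 without G2M replicate 1. Copies of a histone gene are near identical and reads of the H2B reporter may be counted in that family, so single genes are less certain than the list.

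Nucleotide supply and the RBR1 to E2F branch that drives replication genes moved in part. RNR1, the large subunit of ribonucleotide reductase, which makes the deoxynucleotides, had 174 and 161 CPM in G2M, against 82.0 and 94.3 CPM in S, with a log2 fold change of 0.93 ± 0.13 (edgeR adjusted p = 0.00036). The small subunit gene TSO2 had 104 and 142 CPM in G2M, against 74.65 and 131 CPM in S, and did not pass. In all 3 of 8 tested genes of this list were higher (RNR1, DUT1 and THY-2) and none was lower, with a median of 0.39. DUT1, a dUTPase, lost its call without S replicate 1 (edgeR adjusted p = 0.0653) and without G2M replicate 2 (0.12), and THY-2, a thymidylate synthase, without S replicate 1 (0.0619), G2M replicate 1 (0.108) or G2M replicate 2 (0.0849). The higher count was 1 without S replicate 1 and 1 without G2M replicate 2. RBR1 (AT3G12280, chr3:3913349-3919359) had 92.3 and 94.2 CPM in G2M, against 40.5 and 52.5 CPM in S. Its G2M libraries were close together and both above S, with a log2 fold change of 1.02 ± 0.15 (edgeR adjusted p = 0.000621), in all 18 settings.

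Of 19 genes of D-type cyclins, RBR1 and the E2F family, 3 were higher in G2M (15.8%, against 9.56% of all genes) and 2 lower (10.5%, against 10.2%). The D-type cyclins CYCD2;1 and CYCD3;2, which start the cycle with CDKA, had log2 fold changes of 0.42 and 0.44, and CYCD3;1 and the activating factor E2F1, which the literature calls E2FB, had −0.60 and −0.61. These small changes were less stable than that of RBR1: without G2M replicate 1 or without G2M replicate 2 the list had 1 higher and none lower, and without S replicate 2 it had 7 higher and 4 lower. The list had 1 higher and 2 lower without S replicate 1, and 1 higher and 1 lower without either G1 library. Among 17 tested CDK inhibitors and endocycle regulators 1 was higher (5.88%, against 9.56% of all genes) and 4 were lower (23.5%, against 10.2%). AT1G10690, which the list holds as the inhibitor SMR8, had 3.67 and 5.33 CPM in G2M, against 12.04 and 12.8 CPM in S, a log2 fold change of −1.43 ± 0.23 (edgeR adjusted p = 0.00116). AT5G02220 (listed as SMR4, −1.49), AT5G02420 (SMR3, −1.17) and ICK5 (KRP7, −0.94) were lower too. CCS52A2, an activator of the anaphase-promoting complex that favours the endocycle, had a log2 fold change of 0.86 and lost its call without S replicate 1 (0.48, edgeR adjusted p = 0.148), as it did without G2M replicate 1 (0.108) or G2M replicate 2 (0.115). The lower count was 2 without either G2M library and 4 higher were called without S replicate 2.

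Some genes of chromatin assembly were higher as well. Of 16 genes of histone chaperones and DNA methylation 6 were higher and none lower, with a median of 0.30. FAS1 (AT1G65470, chr1:24319396-24324091), whose promoter is printed above, had 19.1 and 17.9 CPM in G2M, against 7.63 and 10.04 CPM in S, a log2 fold change of 1.10 ± 0.20 (edgeR adjusted p = 0.00263). Its partner FAS2 (1.20), the histone H3 lysine methyltransferase gene ATXR6 (1.09), the chaperones NRP1 (0.79) and NRP2 (0.70), and ASF1B (0.53) made up the rest. The higher count was 3 without either G2M library. In repair, 5 of 17 genes were higher and 1 was lower. BARD1, a partner of BRCA1, had 55.0 and 76.6 CPM in G2M, against 14.5 and 32.4 CPM in S. S replicate 1 was the lowest library, and the log2 fold change was 1.56 ± 0.30 with both (edgeR adjusted p = 0.00417) and 1.04 without S replicate 1. The mismatch repair genes MSH7 (0.77) and MSH6 (0.81) and the end-joining gene KU70 (0.52) were also among the higher members. BRCA1 (0.47) did not pass, and GMI1, the 1 lower member at −0.67, lost its call in 12 of 18 settings. The repair list had 3 higher without G2M replicate 1 and 2 without G2M replicate 2, and the call of MSH6 was lost with offsets for GC content and length (edgeR adjusted p = 0.087).

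**Figure D4:**
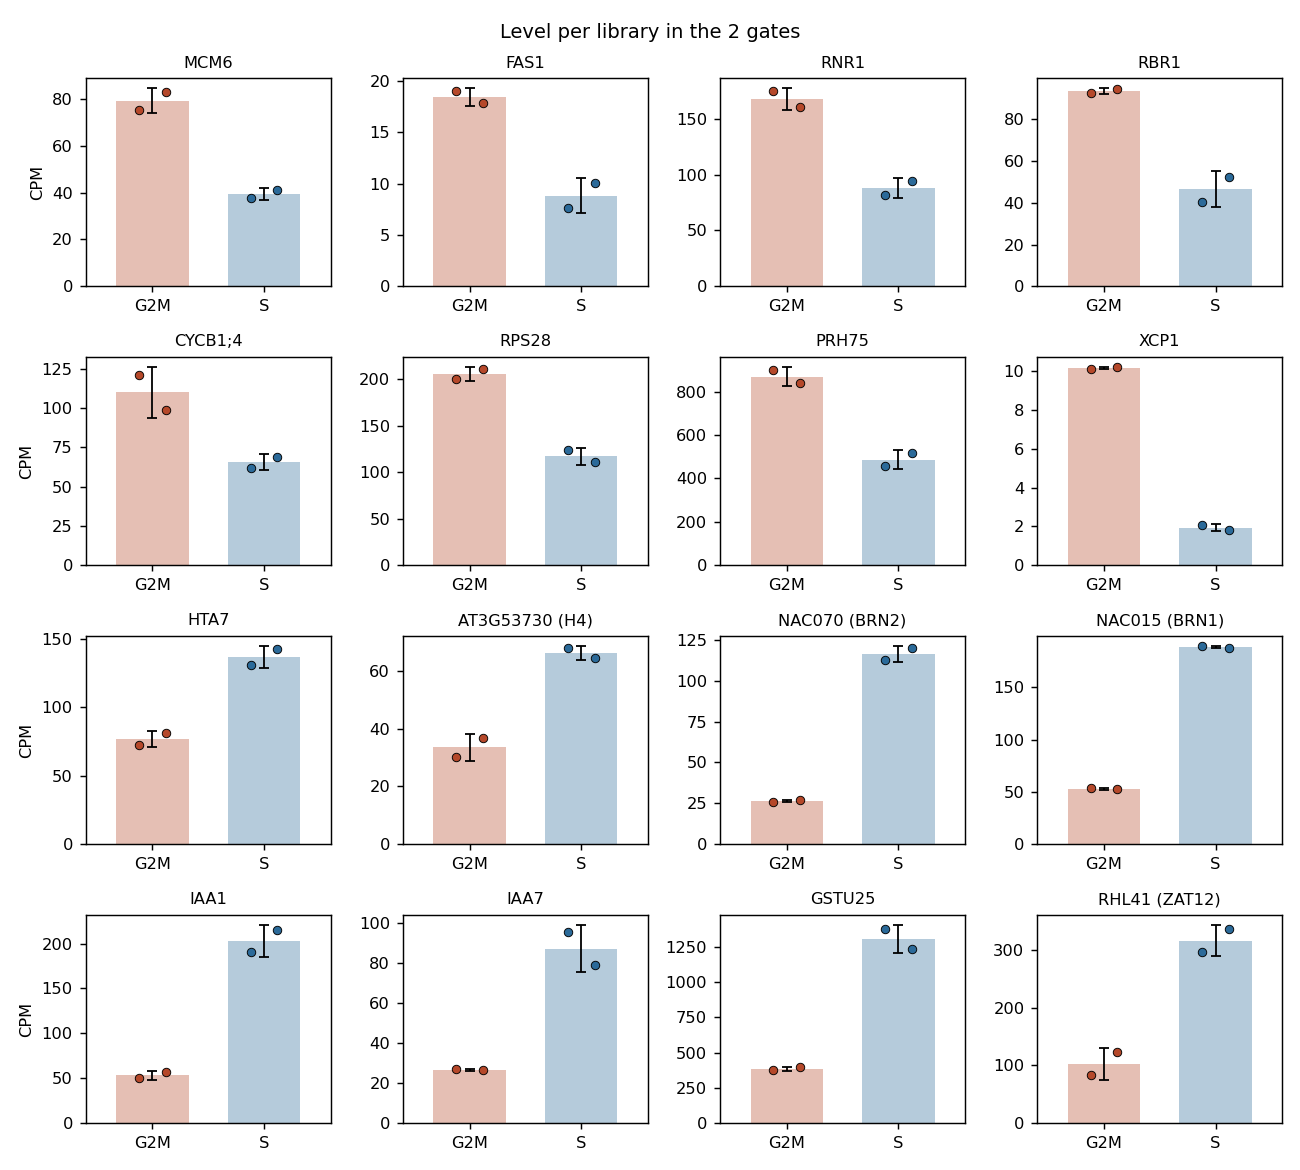
Level in CPM (y axis, from 0) of 16 genes in the G2M gate (red, left) and the S gate (blue, right), with bars at the mean, error bars of 1 SD and a point for each of the 2 libraries. In every panel the G2M and S libraries do not overlap, as for MCM6 (75.4 and 82.9 CPM in G2M, against 37.6 and 41.2 CPM in S) and IAA1 (49.6 and 56.3 CPM in G2M, against 190 and 216 CPM in S).

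Mitotic cyclins, kinases and their regulators had calls in both directions. Of 31 genes of mitotic cyclins, their kinases and APC activators 5 were higher (16.1%, against 9.56% of all genes), 3 lower (9.68%, against 10.2%) and 23 did not pass, with a median of 0.08. Their summed level was 1934 and 1751 CPM in G2M, against 1620 and 1801 CPM in S, which overlap. It was 417 and 401 CPM in G1. CYCB1;4 (AT2G26760, chr2:11401118-11403433), a B-type cyclin, had 121 and 98.7 CPM in G2M, against 61.9 and 69.1 CPM in S, a log2 fold change of 0.75 ± 0.15 (edgeR adjusted p = 0.00453). CYCB2;4 (0.72) and CYCB2;3 (0.61), CYCA3;2 (1.23) and CDC2, which encodes CDKA;1 (0.49), were the other higher members. The B-type cyclins CYCB1;1 (0.34, edgeR adjusted p = 0.0991) and CYC1BAT, which is CYCB1;2 (0.51, 0.053), did not pass. The lower members were UVI4-LIKE, also called GIG1, an inhibitor of the anaphase-promoting complex, at −0.54, and the A-type cyclins CYCA2;4 (−0.50) and CYCA2;3 (−0.44). Without G2M replicate 1 the list had 1 higher and none lower, without G2M replicate 2 3 higher and none lower, without S replicate 1 3 and 2, and without S replicate 2 10 and 2. CYCA3;2 moved to 0.71 without S replicate 1 (edgeR adjusted p = 0.0775) and to 1.91 without S replicate 2.

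Genes of the spindle, the phragmoplast and the chromosome scaffolds follow. None of 15 spindle, kinetochore and checkpoint genes passed, among them AUR1 (0.13), MAD2 (0.31) and the centromeric histone HTR12 (−0.32). At an unadjusted p under 0.05, which 8884 nuclear genes had, the spindle list had 2 higher and 1 lower, DESeq2 called 1 higher and limma-voom 3 higher and 1 lower, and edgeR without S replicate 2 called 3 higher and 1 lower. Of 22 genes of the phragmoplast, cell plate and division plane 2 were higher (9.09%, against 9.56% of all genes) and 1 was lower (4.55%, against 10.2%). The higher ones were AIR9 (0.64) and ATN, which encodes TANGLED (0.90), both of the cortical division zone. The lower one was KEU (−0.56), a partner of the cytokinesis syntaxin. With offsets for GC content and length AIR9 (0.30, edgeR adjusted p = 0.102) and ATN (0.83, 0.0675) lost their calls, and the list had none higher. That syntaxin, KN in the list, had 93.4 and 84.8 CPM in G2M, against 57.4 and 67.7 CPM in S, and did not pass (SYP111, log2 fold change 0.51, edgeR adjusted p = 0.119). The list had none higher or lower without G2M replicate 1, 1 higher without G2M replicate 2, 1 higher and 1 lower without S replicate 1 and 5 higher and 1 lower without S replicate 2. Of 13 cohesin and condensin genes 1 was lower (7.69%, against 10.2% of all genes), EMB2795, a condensin subunit (−0.64). It lost its call without S replicate 1 (−0.56), G2M replicate 1 (−0.66) or G2M replicate 2 (−0.58). No member of that list was called higher by edgeR, against 4 at an unadjusted p under 0.05, 2 by DESeq2, 3 by limma-voom and 6 without S replicate 2. None of 15 tubulins passed (TUB4 0.34, TUA3 0.33), while 3 were higher at an unadjusted p under 0.05, 4 by DESeq2, 5 by limma-voom and 7 without S replicate 2.

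Among 25 kinesins 2 were higher (8%, against 9.56% of all genes) and 1 lower (4%, against 10.2%). Of 6 mitotic transcription factors 1 was higher (16.7%). AT4G26660 (0.87) and AT4G24175 (0.70) were the higher kinesins and AT4G39050 (−0.55) the lower one, and none of the 3 passed without G2M replicate 1. The kinesins had 1 higher and none lower without G2M replicate 2, none higher and 1 lower without S replicate 1, and 5 higher and 3 lower without S replicate 2. With offsets for GC content and length none of them was higher and 4 were lower. The transcription factor was AT1G63100, listed as SCL28, a regulator of the G2 to M transition, with 93.1 and 80.6 CPM in G2M, against 42.5 and 61.5 CPM in S. Its log2 fold change of 0.75 (edgeR adjusted p = 0.0175) was 0.50 without S replicate 1 (0.107). It lost its call without G2M replicate 1 (0.138) or G2M replicate 2 (0.0515) as well. The MYB3R factors, which bind the MSA element, did not pass: PC-MYB1 had 0.17, MYB3R-3 −0.32, MYB3R-4 −0.17 and MYB3R-5 0.22. In the promoters of the mitotic cyclin list AACGG was in 58.1%, against 25.2% of all.

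Ribosomal protein genes were mostly higher in G2M. Of 275 tested genes named as ribosomal proteins 213 were higher in G2M, 4 were lower and 58 did not pass, with a median log2 fold change of 0.57. Together they took 142242 and 151620 CPM in G2M, against 92227 and 107624 CPM in S. The G1 libraries, at 85180 and 90727 CPM, were below both gates. The higher members rose by a narrow margin, from 0.37 to 0.94 on the log2 scale. RPS28 had 200 and 211 CPM in G2M, against 123 and 111 CPM in S, a log2 fold change of 0.81 ± 0.13 (edgeR adjusted p = 0.00131). AT5G56710, annotated as a protein of the L31e family, had 428 and 453 CPM in G2M, against 253 and 273 CPM in S (0.75, edgeR adjusted p = 0.00115). AT4G27090, whose promoter with the telo-box is printed above, had 1109 and 1229 CPM in G2M, against 681 and 750 CPM in S. In all, 56.7% of the promoters of the list held TGGGCC, against 16.4% of all, and 38.5% held AAACCCTA, against 6.11%. The 4 lower members were AT1G17080, AT3G14595 and AT4G26060, named for a ribosomal protein L18ae family, and AT5G63070, with under 1 CPM in each library. The higher count was 82 without G2M replicate 1 and 44 without G2M replicate 2, and 172 and 229 without S replicate 1 and 2.

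The genes that build ribosomes in the nucleolus moved with them. Of 13 genes of ribosome biogenesis 12 were higher and only TOR, the growth kinase, did not pass (0.12). Their summed level was 9490 and 9303 CPM in G2M, against 5470 and 6408 CPM in S. PRH75 (AT5G62190, chr5:24980268-24984044), a nucleolar RNA helicase, had 901 and 839 CPM in G2M, against 457 and 518 CPM in S, a log2 fold change of 0.84 ± 0.12 (edgeR adjusted p = 0.000603). NAP57, the pseudouridine synthase also called CBF5, had 877 CPM in both G2M libraries, against 476 and 556 CPM in S (0.77). The nucleolin gene NUC-L1 (0.70), NOP56 (0.64), AT5G27120, listed as NOP58 (0.68), and the fibrillarin genes FIB1 (0.52) and FIB2 (0.59) followed. The count was 3 without G2M replicate 1 and 7 without G2M replicate 2.

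**Figure D5:**
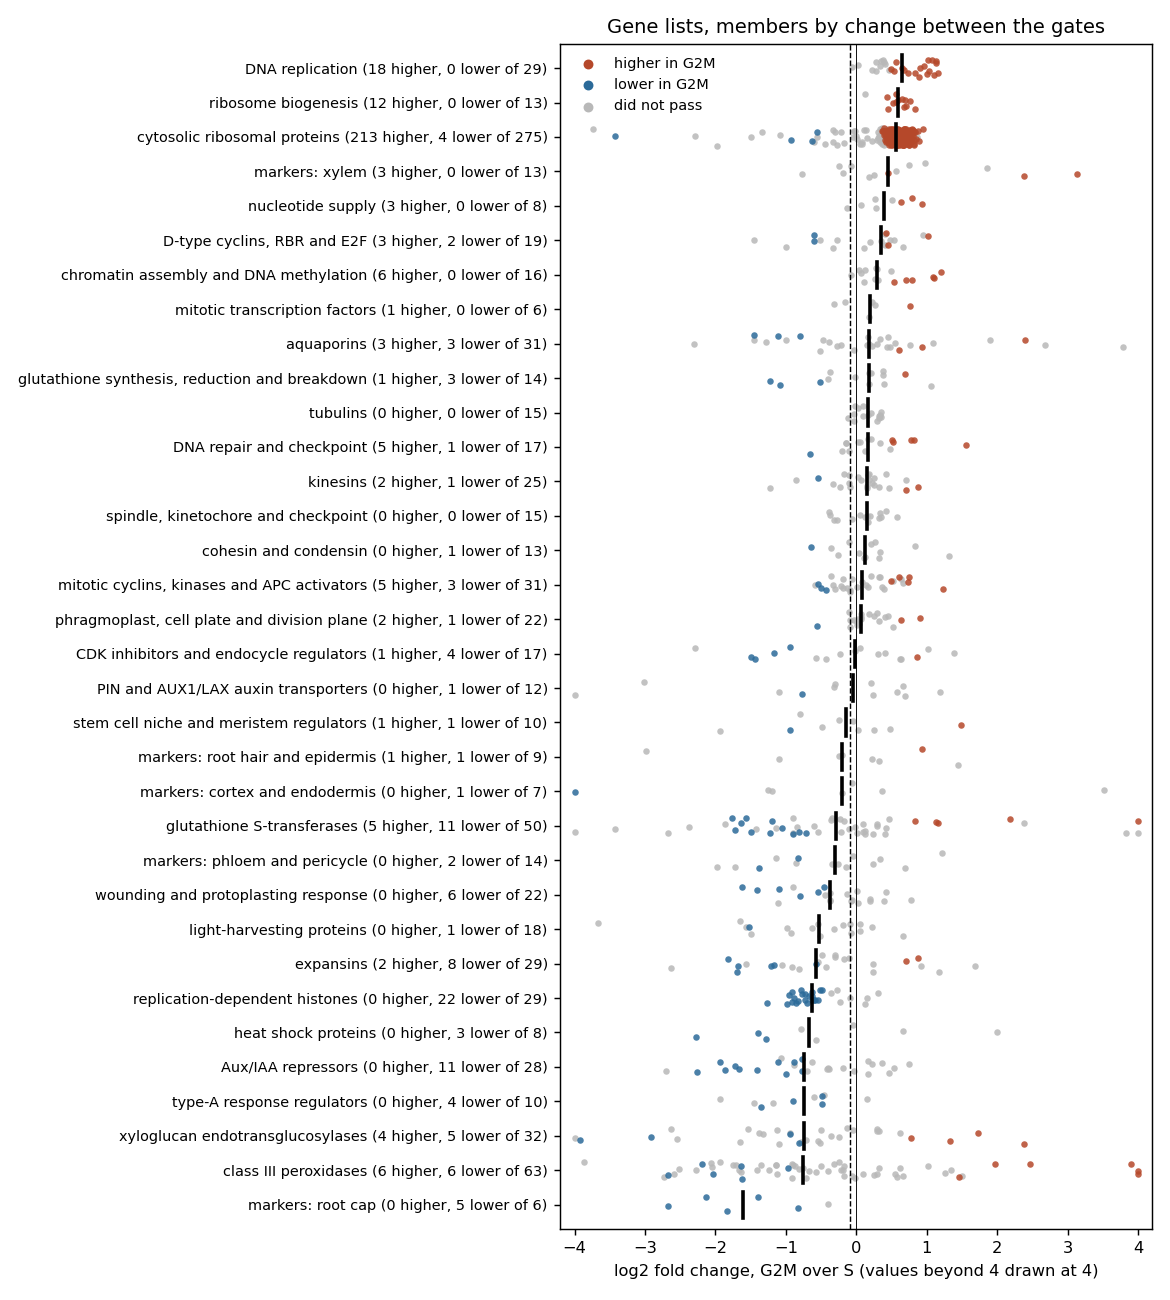
Log2 fold change (G2M over S, x axis) of the members of 34 gene lists, 1 point a gene, in red where higher in G2M, in blue where lower and in grey where not passed, with a black bar at the list's median and a dashed line at the median of all genes (−0.09). Not drawn are 9 list entries with no count in a gate, and values beyond the axis are drawn at its ends. DNA replication, ribosome biogenesis and ribosomal proteins lie to the right (medians 0.64, 0.59 and 0.57), and root cap markers lie farthest to the left (−1.61).

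In several lists edgeR called no member in one direction. For DNA replication, nucleotide supply, chromatin assembly, ribosome biogenesis and xylem markers (lower), and for histones, root cap markers, type-A response regulators and light-harvesting proteins (higher), no member had an unadjusted p under 0.05 in that direction, and neither DESeq2 nor limma-voom called one. Higher members at an unadjusted p under 0.05 numbered 1 for wounding (0 by DESeq2, 2 by limma-voom), 1 for heat shock (0 by either), 1 for cortex and endodermis (1 by each), 2 for auxin transporters (1 and 2), and 0 for both Aux/IAA repressors and phloem (0 by DESeq2 and 1 by limma-voom in each).

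Markers of the root cap, the layer of cells that sheathes the meristem and is shed, were the list with the lowest median. Of 6 markers 5 were lower in G2M and CEL5, a cellulase gene, did not pass (−0.40), with a median of −1.61. Their summed level was 143 and 140 CPM in G2M, against 463 and 454 CPM in S. The G1 libraries, at 800 and 703 CPM, were higher still. NAC070 (AT4G10350, chr4:6415120-6416961), known as BEARSKIN2 and needed for cap cells to detach, had 25.9 and 27 CPM in G2M, against 113 and 120 CPM in S, a log2 fold change of −2.13 ± 0.13 (edgeR adjusted p = 3.61e-06). NAC015 (BEARSKIN1, AT1G33280, chr1:12072611-12073965) had 53.5 and 52.4 CPM in G2M, against 189 and 188 CPM in S (−1.83 ± 0.12, edgeR adjusted p = 3.61e-06). SMB, which sets cap cell maturation, had 20.6 and 14.9 CPM in G2M, against 44.6 and 47.7 CPM in S (−1.39). The nuclease gene BFN1, active in dying cap cells, had 8.0 and 9.85 CPM in G2M, against 76.3 and 36.9 CPM in S, a log2 fold change of −2.67 ± 0.28. These 4 genes held their calls in all 18 settings. FEZ, which acts in cap stem cells, had −0.83 and lost its call without S replicate 1 (edgeR adjusted p = 0.0611) or G2M replicate 2 (0.252). The root cap sum was lower in the same libraries as those of the histones, the Aux/IAA repressors, the wounding genes and the glutathione S-transferases, and its part in those results was not tested.

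Other cell types moved less, and some single genes moved up. Of 13 xylem markers 3 were higher and none lower, with summed levels of 324 and 335 CPM in G2M, against 268 and 269 CPM in S. XCP1 (AT4G35350, chr4:16810482-16812077), a peptidase of vessel cells, had 10.1 and 10.2 CPM in G2M, against 2.05 and 1.80 CPM in S, a log2 fold change of 2.38 ± 0.32 (edgeR adjusted p = 0.000335), in all 18 settings. XCP2 (3.13) and LHW, a factor of early vascular cells (0.45), were the others, and LHW lost its call in 10 settings, among them that without S replicate 1 (0.30, edgeR adjusted p = 0.176). Of 14 phloem and pericycle markers APL (−0.83) and NAC020 (−1.38) were lower with both S libraries, and without S replicate 1 neither was called (APL −0.48, edgeR adjusted p = 0.213, and NAC020 −0.39, 0.549) and 2 others of the list were higher. The phloem sums were 80.6 and 94.6 CPM in G2M, against 104 and 68.1 CPM in S, which overlap. Of 9 tested root hair and epidermis markers GL2, which specifies non-hair cells, was higher, with 57.7 and 51.1 CPM in G2M, against 26.2 and 31.4 CPM in S (0.93). Its call was lost without G2M replicate 1 (0.87, edgeR adjusted p = 0.0602), where no member of that list was higher. EXPA18, a hair expansin, was called lower at 0 CPM in both G2M libraries, against 1.34 and 0 CPM in S, so it rests on S replicate 1. Of 7 tested cortex and endodermis markers 1, GPAT5, was called lower, with 0.0666 and 0.0335 CPM in G2M, against 2.53 and 0 CPM in S, and its sign turned without S replicate 1. Of 10 genes of the stem cell niche 1 was higher and 1 lower, 10% each way, near the shares of all genes. SCR, which patterns the ground tissue and niche, had 16.8 and 22.1 CPM in G2M, against 7.65 and 6.04 CPM in S, a log2 fold change of 1.49 ± 0.24 (edgeR adjusted p = 0.00124). RGF3, a peptide gene of the niche, was lower (−0.94), and lost its call with offsets for GC content and length (edgeR adjusted p = 0.289).

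Some auxin and cytokinin response genes were lower in G2M. Of 28 tested Aux/IAA repressors, which auxin both induces and destroys, 11 were lower and none higher, with a median of −0.74. Their summed level was 798 and 878 CPM in G2M, against 1329 and 1396 CPM in S. IAA1 (AT4G14560, chr4:8360996-8362033) had 49.6 and 56.3 CPM in G2M, against 190 and 216 CPM in S, a log2 fold change of −1.94 ± 0.13 (edgeR adjusted p = 3.61e-06). IAA7 (AT3G23050, chr3:8194606-8197161) had 27 and 26.3 CPM in G2M, against 95.5 and 78.7 CPM in S (−1.72). IAA2 (−1.86), IAA19 (−1.41), IAA14 (−1.11) and AXR3 (−0.99) were lower too. BRU6, an auxin-conjugating enzyme of the GH3 family, had 8.40 and 9.62 CPM in G2M, against 48.0 and 43.4 CPM in S (−2.34), and AUX1, the influx carrier, 244 and 218 CPM in G2M, against 345 and 444 CPM in S (−0.77). AUX1 was the only one of 12 auxin transporters to pass and lost its call without G2M replicate 1 (edgeR adjusted p = 0.0516) or G2M replicate 2 (0.0726), while without S replicate 2 the transporters had 3 higher and 4 lower. TGTCTC was in 39.3% of Aux/IAA promoters, against 14% of all. The count of lower Aux/IAA genes was 7 without G2M replicate 1, and 3 were higher without S replicate 2. Of 10 type-A response regulators, which cytokinin induces, ARR6 (−1.36), ARR9 (−0.89), RR3 (−0.49) and ARR4 (−0.48) were lower, but none was without G2M replicate 1, 1 without S replicate 1 and 2 without G2M replicate 2 or G1 replicate 2.

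Some stress genes, of the kind that protoplasting induces, were also lower. Of 22 tested genes of wounding and protoplasting 6 were lower and none higher, and their sum was 1415 and 1584 CPM in G2M, against 2156 and 2498 CPM in S. RHL41, the zinc finger factor ZAT12 of oxidative stress, had 82.9 and 123 CPM in G2M, against 297 and 336 CPM in S, a log2 fold change of −1.62 ± 0.17 (edgeR adjusted p = 4.58e-05). RAP2.4, listed as the wound-induced regeneration factor WIND1, had 280 and 274 CPM in G2M, against 560 and 630 CPM in S (−1.10, edgeR adjusted p = 7.05e-05). LOX2, a jasmonate enzyme (−1.41), WRKY33 (−0.80), JAZ1 (−0.55) and ERF6 (−0.46) completed the group. The lower count was 2 without G2M replicate 1 and 3 without G2M replicate 2, and without S replicate 2 3 genes were higher. Of 8 tested heat shock genes HSP17.4 (−2.28), HSP17.6A (−1.39) and HSP101 (−1.29) were lower, and without S replicate 1 there were 2 lower and 1 higher. Without S replicate 1 HSP101, a disaggregase, had −0.85 and kept its call, and HSP17.6A had −0.61 and lost it (edgeR adjusted p = 0.135).

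Glutathione is the thiol that the series' title links to cell cycle speed. Of 14 genes of its synthesis, reduction and breakdown 1 was higher (7.14%, against 9.56% of all genes) and 3 lower (21.4%, against 10.2%). GR1, which reduces oxidised glutathione in the cytosol, had 129 and 128 CPM in G2M, against 71.5 and 88.5 CPM in S, a log2 fold change of 0.69 ± 0.14 (edgeR adjusted p = 0.00536), and its call was lost without G2M replicate 1 (0.0577). GPX2, a peroxidase of the family that removes peroxides, had 22.8 and 25.8 CPM in G2M, against 58.1 and 55.8 CPM in S (−1.23 ± 0.13, edgeR adjusted p = 6.29e-05). GGT1, which degrades glutathione outside the cell, had 22.3 and 29.8 CPM in G2M, against 57.3 and 53.2 CPM in S (−1.08), and GPX6 had −0.51. GPX2 and GGT1 held in all 18 settings, whereas GPX6 lost its call without S replicate 1 (edgeR adjusted p = 0.0668) or G2M replicate 1 (0.371). Of 50 tested glutathione S-transferases, which conjugate glutathione to toxins, 11 were lower (22%, against 10.2% of all genes). The 5 higher ones were 10%, near the 9.56% of all genes. Summed levels were 2462 and 2782 CPM in G2M, against 4543 and 4699 CPM in S. The G1 libraries had 7527 and 6985 CPM. GSTU25 had 373 and 394 CPM in G2M, against 1377 and 1234 CPM in S, a log2 fold change of −1.77 ± 0.12 (edgeR adjusted p = 3.65e-06), and GSTU22 120 and 132 CPM in G2M, against 359 and 389 CPM in S (−1.56). ATGSTF13, with 39.9 and 51.3 CPM in G2M, against 18.8 and 24 CPM in S (1.13), was the only higher member to hold its call in all 18 settings. Calls of GSTU6 (0.84), GSTU27 (1.16), GSTU4 (2.18) and ERD9 were lost without S replicate 1 and without G2M replicate 2. The count of higher members was 1 without S replicate 1, 2 without G2M replicate 2 and 8 without S replicate 2.

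Families of the cell wall and of water transport had calls in both directions, some at shares near those of all genes. Of 29 tested expansins, which loosen walls, 8 were lower (27.6%, against 10.2% of all genes) and 2 higher (6.90%, against 9.56%). EXPA9 had 169 and 192 CPM in G2M, against 419 and 415 CPM in S (−1.21 ± 0.12, edgeR adjusted p = 3.64e-05), and EXPA17 11.8 and 16.8 CPM in G2M, against 52.2 and 41.1 CPM in S (−1.70). EXPA6 (0.70) and EXPB1 (0.87) were higher, and both lost their calls without G2M replicate 1 or 2. The lower count was 3 without G2M replicate 1, 4 without G2M replicate 2 and 13 without S replicate 2. Of 32 tested xyloglucan endotransglucosylases 12.5% were higher and 15.6% lower, against 9.56% and 10.2% of all genes. The 4 higher members were XTH15 (2.37), XTH21 (1.72), XTH16 (1.33) and XTH9 (0.78). Among the 5 lower were XTH5, with 263 and 290 CPM in G2M, against 438 and 533 CPM in S (−0.81), TCH4 (−0.95) and XTH14 (−2.91). XTH3 and XTH7, the remaining lower members, had at most 0.994 CPM in any of the 4 libraries. That list had 2 higher and 1 lower without G2M replicate 1, 1 higher and 2 lower without G2M replicate 2, 4 and 2 without S replicate 1 or either G1 library, and 5 and 11 without S replicate 2.

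Of 63 tested class III peroxidases, which oxidise wall phenolics, 6 were higher and 6 lower. These are 9.52% each way, near the 9.56% higher and 10.2% lower of all genes. AT5G24070 had 102 and 95.6 CPM in G2M, against 447 and 362 CPM in S (−2.03 ± 0.14, edgeR adjusted p = 3.61e-06), whereas Prx37 had 32.9 and 40.8 CPM in G2M, against 8.46 and 10.9 CPM in S (1.96). The list's median was −0.76 with both S libraries and 0.11 without S replicate 1, and 21 members were lower without S replicate 2, while 10 were higher without S replicate 1. It had 7 higher and 3 lower without G2M replicate 1, and 3 higher and 4 lower without G2M replicate 2. Of 31 tested aquaporins the plasma membrane channels PIP3, with 335 and 356 CPM in G2M, against 160 and 203 CPM in S (0.93), PIP1;4 (0.61) and PIP2A (2.4) were higher. NLM1, with 127 and 136 CPM in G2M, against 376 and 344 CPM in S (−1.45 ± 0.12, edgeR adjusted p = 7.62e-06), TIP2 (−1.12) and the boric acid channel NIP5;1 (−0.80) were lower. The aquaporins called were 9.68% of those tested in each direction, near the shares of all genes. TIP2 was −0.25 without S replicate 1 (edgeR adjusted p = 0.636). The aquaporins had 6 higher and 8 lower without S replicate 2, 3 higher and 1 lower without G2M replicate 1, and 1 higher and 2 lower without G2M replicate 2. Of 18 tested light-harvesting proteins 1 was lower (5.56%, against 10.2% of all genes), AT1G76570 (−1.52). It lost its call without G2M replicate 1 (−1.15).

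The largest changes were taken among called genes with a symbol, at least 10 CPM in a gate and no overlap between the gates' libraries. They were in genes of several kinds. Some of the rises were in genes of the wall and the xylem. PAL1 (AT2G37040, chr2:15557367-15560755), the entry enzyme of phenylpropanoid and lignin synthesis, had 14.5 and 22.3 CPM in G2M, against 1.22 and 3.22 CPM in S, a log2 fold change of 3.27 ± 0.43 (edgeR adjusted p = 0.000294). EXT3, a wall extensin, had 14.4 and 21.4 CPM in G2M, against 3.06 and 0.941 CPM in S (2.98). PME3, a pectin methylesterase, had 26.1 and 24.3 CPM in G2M, against 5.14 and 10.1 CPM in S (1.81). With XCP2 (3.13), XCP1 (2.38), PIP2A (2.4) and Prx37 (1.96) they stand among the 12 largest rises, together with GASA1 (2.85), GT72B1 (1.99), RECQI1, a RecQ helicase (1.83), and ELP, an extensin-like protein (1.81). GASA1, GT72B1 and PIP2A lost their calls without G2M replicate 2 (edgeR adjusted p = 0.249, 0.262 and 0.09), and without S replicate 1 GASA1 moved to 4.62 and PIP2A to 4.89.

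None of the 12 largest falls lost its call in any of the 18 settings. EDA36, annotated as a transferase that uses pyridoxal phosphate and whose promoter with its W-box letters is printed above, had 19.1 and 14.4 CPM in G2M, against 150 and 74.3 CPM in S, a log2 fold change of −2.77 ± 0.27 (edgeR adjusted p = 3.03e-05). S replicate 1 was the higher of the S libraries. That both S libraries lay above both G2M libraries was a condition of the choice of these genes. CSLB01, a cellulose synthase-like gene, had 34.1 and 32.3 CPM in G2M, against 190 and 152 CPM in S (−2.37 ± 0.14, edgeR adjusted p = 3.61e-06), and its relative CSLB02 had −2.47. RNS3, a ribonuclease, had 25.1 and 25.03 CPM in G2M, against 152 and 88.5 CPM in S (−2.28). PAP22, a purple acid phosphatase, had 4.66 and 4.15 CPM in G2M, against 24.6 and 24.1 CPM in S (−2.48). The prenyltransferase genes cPT9 (−2.52) and CPT (−2.39), MAP18, a microtubule-associated protein (−2.44), HMT3, a homocysteine methyltransferase (−2.32), LPAT3, an acyltransferase of lipid synthesis (−2.30), and BFN1 and BRU6, described above, completed the set.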

How the data were processed

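RNA was sequenced in 6 libraries of sorted Arabidopsis root-tip protoplasts, 2 each from G2M, S and G1 gates. The labels' protocols name SMART-Seq v4 for amplifying total RNA and Ovation Ultralow V2 for the libraries. Trimmomatic 0.39, HISAT2 2.2.1, featureCounts and the TAIR10 build are credited to the submitters' processing notes. For featureCounts options, strandedness and reads with several matches, the sources used here give nothing, so antisense overlaps and near-identical copies (histones, ribosomal proteins, GSTU24 and GSTU25) are uncertain.

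The deposited table holds raw read counts per gene, unnormalized, per its whole numbers and the labels. A further deposited table named TPM was not used, since its columns sum to between 0.000498 and 0.0075. Genes were tested with edgeR 4.0.16 (R 4.3.3): TMM factors, default filterByExpr, 1 quasi-likelihood fit of 3 gates to 6 libraries, contrast G2M minus S, and Benjamini-Hochberg adjustment over 25364 genes, of which 275 are plastid or mitochondrial and are not counted here. The SE is the log2 fold change divided by the square root of F. CPM values are counts scaled to 1000000 per library total times its TMM factor. Floors cover counting error only, since reads carry no molecular identifiers. On simulated data for G2M versus S (24570 genes), 54% of 100 genes changed 2-fold and 81% of 100 changed 4-fold were recovered, with 10 false calls among 24370. The simulation gave a gene the same spread in every gate and changed only genes averaging at least 1 CPM. In the data the log2 difference within a pair had an SD of 1.25 in S and 0.917 in G2M. False calls from such unequal spread were therefore not measured. DESeq2 1.42.0, limma-voom (limma 3.58.1) and 16 other settings were alternatives.

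The gene lists, the members and the tests were chosen with earlier results of these data known. Named genes are the 12 genes with a symbol that passed with the largest changes each way, provided that the gates' libraries do not overlap and one gate averages 10 CPM or more, the 2 members of each of 34 lists with the smallest p, and all members of a list's class (higher, lower or not passed) of 5 or fewer. Other members were added as examples after their values were seen. Results of 3 genes are not reported here, while counts include them. The annotation names of 5 list members did not match, and these were dropped. For 12 lists found by searching annotation names, matches to unrelated genes were removed after they were seen. The ribosomal list may hold nuclear genes of organelle ribosomes. Reads of the reporters may add to CDT1A and to H2B genes. Promoters and coordinates are from the RefSeq TAIR10.1 genome. Where G2M and S replicates share a number, their deviations from the gate means did not correlate, so the numbers were not used to pair samples.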

Additional observations from a re-analysis of the deposited data

How the results depend on the processing

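The numbers of higher and lower genes stayed within 1.5 times of 2399 and 2554 with other scaling factors, with no filter or a filter of 1 CPM, in a fit of the 4 libraries alone, without organelle genes, with offsets for GC content and length, and with DESeq2. With all libraries thinned to the smallest they were 920 and 1324, and limma-voom called 3994 higher. Leaving out 1 library gave 482 to 4924 higher and 990 to 4351 lower. Both counts were lower with thinning than with any of the other scaling factors. Thinning was a random draw that also left fewer nuclear genes past the filter, 21403 against 25089, and the part of depth was not tested. The share of higher genes among called genes moved by under 10 percentage points with other scaling factors.

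Same-numbered replicates shared only a number: their deviations from the gate means correlated at −0.065 (G2M and S), 0.031 (G2M and G1) and −0.046 (S and G1). With a replicate block 2113 genes were higher and 2132 lower, and with the block and offsets for GC content and length 1967 and 2613.

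Over the named genes and 18 settings, the side of the threshold and the direction were kept in 2614 cases, a call was lost in 316, gained in 34, and in 1 the sign turned with no call: GPAT5 AT3G11430 had −4.87 with both S libraries and between −5.71 (without S replicate 2) and 4.29 (without S replicate 1, edgeR adjusted p = 0.568) with 1 library left out, S replicate 1 being the only library of the 2 gates with more than 1 CPM of it. Counts of list members moved by over 1.5 times in 288 of 1224 cases and list medians by over the spread in 115 of 612. Of the 141 named genes called, 63 kept their call in every setting.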

Other observations

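Some of the largest changes were in genes for which the annotation gives no symbol, chosen as the 6 largest in each direction after the values were seen. They had to meet the same conditions on call, level and overlap as the genes with a symbol. AT1G62480 had 79.6 and 82.5 CPM in G2M, against 20.4 and 25.1 CPM in S, a log2 fold change of 1.85 ± 0.15 (edgeR adjusted p = 8.7e-06), and held in all 18 settings. AT3G06460 had 72.0 and 82.7 CPM in G2M, against 426 and 378 CPM in S (−2.38 ± 0.13, edgeR adjusted p = 3.61e-06). The other lower genes of this kind were AT1G50050 (−3.01), AT4G22640 (−2.74), AT2G14095 (−2.70), AT3G20160 (−2.57) and AT2G23400 (−2.47), and all 6 lower genes kept their calls in the 18 settings. AT3G28600 had 7.46 and 17.9 CPM in G2M, against 0 and 0.0784 CPM in S, where S replicate 1 is the deepest library. AT3G21770, annotated as a peroxidase, had 8.93 and 12.5 CPM in G2M, against 0.895 and 0.314 CPM in S, a log2 fold change of 3.89, while AT2G38240 (3.90) moved to 2.15 and lost its call without G2M replicate 2 (edgeR adjusted p = 0.0663).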
